A study of Saccharomyces cerevisiae with 8 samples.

Results

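Nrd1-unterminated transcripts (NUTs) are noncoding RNAs of budding yeast (Saccharomyces cerevisiae) that were named for running on when the termination factor Nrd1 is removed. All features whose name starts with NUT were taken, which gave 1526 of the 10891 features in the deposited table, and no measured value entered the choice. The table also held 6575 protein-coding features, 1664 Xrn1-sensitive unstable transcripts (XUTs), 925 cryptic unstable transcripts (CUTs), 76 snoRNAs and 92 ERCC spike-in RNAs. The table gives names and values without coordinates, so the NUTs are placed here by chromosome and by the features listed around them.

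In yeast the Nrd1-Nab3-Sen1 complex ends the transcription of short RNA polymerase II units such as snoRNAs and CUTs. Nrd1 and Nab3 bind short motifs in the emerging RNA, the helicase Sen1 releases the polymerase, and the TRAMP complex and the nuclear exosome then trim or degrade the transcript. Many NUTs are longer forms of CUTs or snoRNA transcripts, or antisense RNAs, that start at the usual site and pass the usual end.

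The series title concerns the response of long noncoding RNAs to nuclear depletion of Dbp2, a DEAD-box RNA helicase. Total RNA was sequenced from 4 groups of 2 biological replicates each: Dbp2-FRB-GFP cells with rapamycin, Dbp2-FRB-GFP cells without rapamycin, parental cells with rapamycin and parental cells without rapamycin. All 8 libraries came from W303 cells of mating type MATalpha with the background psi+ GAL ura3, his3-11,15, can1-100 and trp1-1, besides ade 2-1 and a leu2 allele that joins alleles 3 and 112. Both strains also carry tor1-1, a TOR1 allele that rapamycin does not inhibit, the fpr1::NAT deletion, and RPL13A-2xFKBP12::TRP1, a ribosomal protein fused to the rapamycin-binding protein FKBP12. The tagged strain adds DBP2-FRB-GFP-KanMX6, which the labels give in the source name and leave out of the genotype field. In such an anchor-away strain rapamycin joins the FRB tag to the ribosomal anchor, which carries the tagged protein out of the nucleus. Cells grew in rich medium (YPD) at 30 °C to an OD600 of 0.5, and rapamycin was given at 1 µg/mL for 1 h. Libraries were made with a stranded total-RNA kit from 125 ng of rRNA-depleted RNA.

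The libraries held 22520528 to 27497250 yeast reads. The tagged libraries held 747342 to 975734 spike-in reads and the parental libraries 950026 to 1267031. The library factors that divide the reads were 0.791 to 1.03 in tagged and 0.989 to 1.34 in parental libraries. With rapamycin, DBP2 itself had densities of 4.33 and 2.86 in tagged cells and 2.29 and 2.59 in parental cells, a log2 fold change of 0.53 ± 0.16 (limma adjusted p = 0.00626). That call was lost without Dbp2-FRB-GFP rapamycin replicate 1 (0.23, adjusted p = 0.18), without parental rapamycin replicate 1 (0.44, adjusted p = 0.057) and under the protein-coding (0.023) and quantile (0.13) scalings, and scaled to snoRNAs the value was -0.14. The mRNA level does not check the depletion, since anchoring acts on the protein. A density is the number of reads per nucleotide of a feature divided by a spike-in factor of the library. In such bulk RNA a change in the number of cells that make a transcript and a change in the RNA made per cell cannot be told apart.

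The most abundant NUTs in the table lie over snoRNA genes, whose ends are known targets of Nrd1 and Nab3. The table has no NUT coordinates, so the sequences shown are the 100 bases that follow the annotated 3′ end of 7 snoRNAs, the stretch where the complex is known to act. Of these, 5 lie in the 10 most abundant NUTs, while snR31 and snR56 lie in less abundant NUTs described further on. They are read 5′ to 3′ on the RNA strand from the RefSeq annotation of build R64. Capitals mark GTAA and GTAG, the core motifs of Nrd1, and TCTT, the core motif of Nab3, and matches that overlap or touch run together.
snR37, in NUT1169, chrX:227994-228093, minus strand: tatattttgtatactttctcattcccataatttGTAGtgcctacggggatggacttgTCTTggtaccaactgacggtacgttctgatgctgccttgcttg
snR30, in NUT0490, chrXII:199390-199489, plus strand: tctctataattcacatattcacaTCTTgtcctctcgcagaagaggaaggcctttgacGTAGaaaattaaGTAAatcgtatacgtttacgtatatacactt
snR10, in NUT0258, chrVII:346231-346330, plus strand: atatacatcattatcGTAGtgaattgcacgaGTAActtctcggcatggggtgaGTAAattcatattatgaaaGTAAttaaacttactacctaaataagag
snR46, in NUT0270, chrVII:545567-545666, plus strand: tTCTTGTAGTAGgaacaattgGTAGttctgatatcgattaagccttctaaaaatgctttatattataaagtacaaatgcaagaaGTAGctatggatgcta
snR63, in NUT0891, chrIV:323117-323216, minus strand: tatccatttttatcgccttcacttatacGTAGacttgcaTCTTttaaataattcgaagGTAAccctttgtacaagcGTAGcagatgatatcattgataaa
snR31, in NUT1446, chrXV:841858-841957, minus strand: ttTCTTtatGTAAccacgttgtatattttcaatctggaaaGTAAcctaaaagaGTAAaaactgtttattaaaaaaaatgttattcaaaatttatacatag
snR56, in NUT0013, chrII:88278-88377, plus strand: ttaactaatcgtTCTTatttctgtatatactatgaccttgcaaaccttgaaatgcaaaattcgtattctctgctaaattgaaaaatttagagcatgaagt

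Of the 37 windows behind snoRNA genes contained in NUTs, 31 (83.8%) held GTAA or GTAG, 34 (91.9%) held TCTT and 28 (75.7%) held both. Read on the other strand, the same windows held both in 9 cases (24.3%). Behind all 76 snoRNA genes the share with both was 60.5% on the RNA strand, and behind 6002 protein-coding genes it was 25.3%. A match is a description of the letters and not of binding, and the snR56 window shown above held TCTT and no GTAA or GTAG.

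The NUTs were long and mostly weakly expressed. Lengths recovered from the densities ran from 138 to 8314 nt with a median of 1516 nt, and by their numbering 816 NUTs lay on the plus strand and 710 on the minus strand. Of the 1526 NUTs, 1215 passed the filter on low values, a mean density of 0.0127 over the 8 libraries, and 311 did not. The NUTs left out averaged a median of 13.8 reads per library, and none was at 0 in every library. The tested NUTs averaged a median of 50 reads, with 168 under 20 reads and 52 over 1000. The 10 most abundant NUTs held 65.5% of all NUT reads, and 9 of them contain a snoRNA gene.

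NUTs were mostly higher in tagged than in parental cells with rapamycin. The median density of all 1526 NUTs was 0.0406 and 0.0373 in the tagged libraries with rapamycin, against 0.0204 and 0.0192 in the parental libraries with rapamycin. Both tagged libraries lay above both parental ones. By limma with Benjamini-Hochberg adjustment over all 9719 tested features at 0.05, 926 of the 1215 tested NUTs rose and 20 fell, where 70.3% of all tested features rose and 2.13% fell. The NUT share was 76.2% higher and 1.65% lower. At least 2-fold rises were called for 326 NUTs, where 19.7% of all tested features had one, and at least 2-fold falls for 2, where 0.504% of all tested features had one. The median log2 fold change was 0.73 for the NUTs, with quartiles of 0.47 and 1.03, beside 0.59 for all tested features. Among the other noncoding classes the median was 1.02 for CUTs, of which 729 of 838 rose, and 0.75 for XUTs, of which 1075 of 1475 rose. Of 6084 tested protein-coding features 4017 rose, with a median of 0.50.

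The same direction held without rapamycin, where the labels give the Dbp2 tag with its KanMX6 marker as the difference between the strains. The median NUT density was 0.0322 and 0.0309 in the tagged libraries without rapamycin, against 0.0175 and 0.0194 in the parental libraries without rapamycin. Here 701 NUTs (57.7%) rose and 22 fell, where 43.5% of all tested features rose and 2.75% fell. At least 2-fold rises were called for 156 NUTs, where 9.82% of all tested features had one. At least 2-fold falls were called for 3 NUTs, where 0.514% of all tested features had one. The median log2 fold change was 0.58 for the NUTs and 0.36 for all tested features. The call count depended on single libraries. Fewer NUTs rose without replicate 1 of the untreated parental cells or without Dbp2-FRB-GFP untreated replicate 1. Fewer fell without Dbp2-FRB-GFP untreated replicate 2. The share of all tested features in those fits is not given here, so this does not set NUTs apart from other features.

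A total of 677 NUTs rose in both strain comparisons, where 42% of all tested features did, and 18 fell in both, where 1.86% did. A further 249 were called higher with rapamycin alone, where 28.3% of all tested features were, and 24 without rapamycin alone, where 1.48% were. No NUT had opposite calls, and 241 were called in neither comparison, where 25.2% of all tested features were. A call in 1 comparison and not in the other shows no difference between them. The densities of the 4 tagged and the 4 parental libraries did not overlap for 900 NUTs in which tagged cells were higher, where the same held for 57.9% of all tested features. They did not overlap for 24 NUTs in which tagged cells were lower, where the same held for 1.92% of all tested features.

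**Figure D1:**
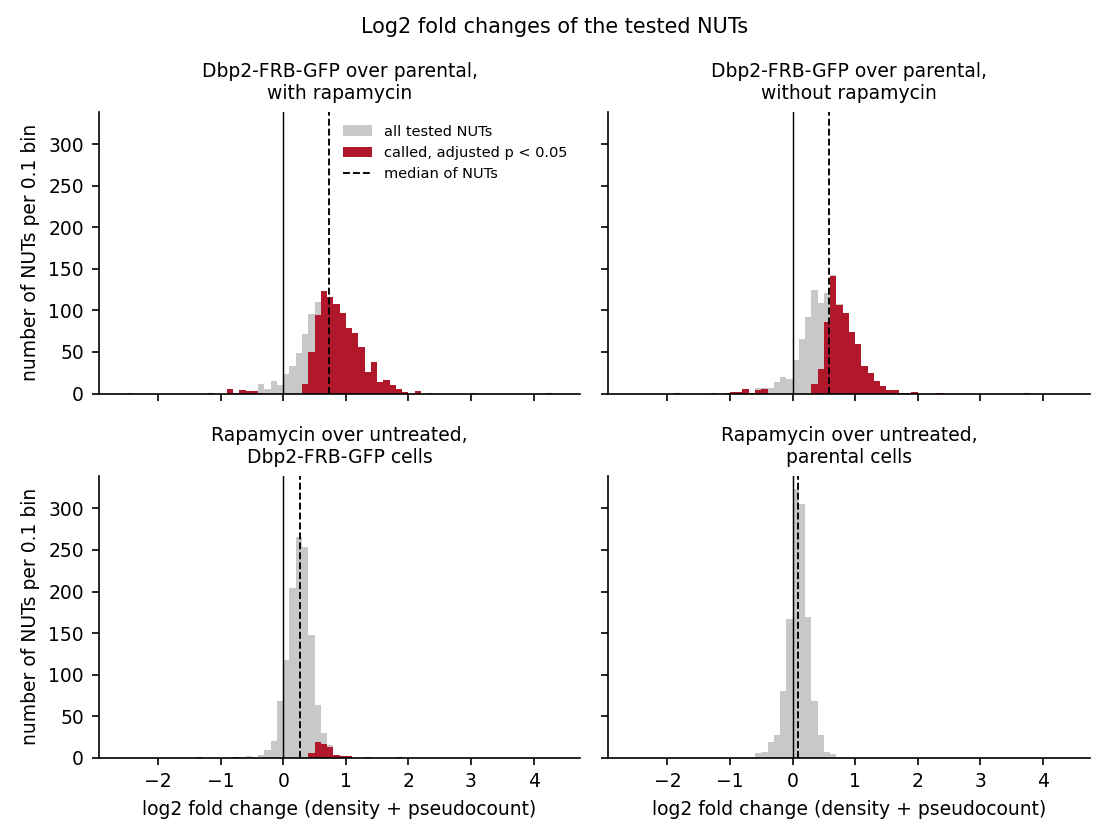
Histograms of the log2 fold changes of the 1215 tested NUTs in 4 comparisons, as number of NUTs per bin of 0.1 on the log2(density + pseudocount) scale, with called NUTs in red and the NUT median as a dashed line. The medians lie at 0.73 and 0.58 in the strain comparisons, at 0.27 for rapamycin in Dbp2-FRB-GFP cells and at 0.09 for rapamycin in parental cells.

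The size of the NUT change depended on the spike-in scaling, and the sign of the class median turned under quantile normalization with rapamycin. Scaled to protein-coding features, 423 NUTs rose and 69 fell with rapamycin (median 0.31), where 29.6% of all tested features rose and 18.6% fell. Without rapamycin that scaling gave 477 that rose and 53 that fell (median 0.37), where 28% of all tested features rose and 14.9% fell, and the median of all tested features was 0.12 in both states. Scaled to snoRNAs, 201 rose and 61 fell with rapamycin (median 0.18), where 12.8% of all tested features rose and 10.4% fell (median -0.04). Without rapamycin 88 rose and 78 fell (median 0.05), where 6.73% of all tested features rose and 20.3% fell (median -0.24). After quantile normalization, 174 rose and 179 fell with rapamycin (median -0.02), where 20.2% of all tested features rose and 23.1% fell. Without rapamycin 153 rose and 126 fell (median 0.03), where 16.7% of all tested features rose and 19.4% fell, and all tested features had a median of -0.02 in both states. The NUT median lay above the median of all tested features under each of these scalings.

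NUTs that rose were found at all levels, lengths and positions. The tested NUTs were split by mean density into 4 groups of 303 or 304, of which 67.4%, 77.3%, 81.5% and 78.6% rose with rapamycin, from the lowest group up. By length, groups of the same sizes gave 80.6%, 82.9%, 74.6% and 66.8%, from the shortest (138 to 864 nt) to the longest (2143 to 8314 nt), with medians of 0.83, 0.80, 0.71 and 0.62. On the plus strand 77.3% rose and on the minus strand 74.9%. By chromosome the share that rose ran between 63.0% on chromosome III and 85.3% on chromosome II. Of all tested features 70.3% rose with rapamycin, so the lowest density group, the longest group and some chromosomes lay below that share. These shares are descriptions, and their differences were not tested.

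Many NUT values were shared with other annotated features on the same strand. Among 1138 NUTs with at least 20 reads on average, 293 took most of their reads from, or gave most of them to, a feature listed nearby, and 15 NUTs had exactly the reads of another feature. Of the tested NUTs, 39 shared reads with a snoRNA or with NME1 (the RNA of RNase MRP), 74 with a protein-coding gene, 143 with an XUT and 32 with a CUT. A NUT that holds only a small share of a larger feature's reads would be missed. For 927 tested NUTs no partner was found, those under 20 reads included. In that group 689 rose and 14 fell with rapamycin (74.3% higher, median 0.75), and 521 rose and 16 fell without it (56.2% higher, median 0.58). Among the NUTs over a protein-coding gene 53 of 74 rose with rapamycin and 26 of 74 without it, with medians of 0.56 and 0.33. Among the NUTs over a CUT 29 of 32 and 25 of 32 rose, with medians of 0.94 and 0.80. Of all tested features 70.3% rose with rapamycin and 43.5% without it, with medians of 0.59 and 0.36, so the NUTs over protein-coding genes lay near or below these values.

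The NUTs over snoRNA genes could be split into the snoRNA and the rest of the NUT. For 37 NUTs that contain a snoRNA gene, the reads of that snoRNA were subtracted from those of the NUT. This left the same-strand reads that lie outside that 1 snoRNA. A further gene can lie in the outside part. In the 100 bases behind snR190 (NUT1162) and snR70 (NUT1510) the annotation has the snoRNA genes SNR128 and SNR51. There the lowest outside counts of a library were 25496 and 5258 reads. Some other windows overlap a protein-coding gene, such as EFM3 behind snR3. In a fit with these outside reads in place of the whole NUT, the outside part rose in 35 of 37 NUTs with rapamycin and fell in 0, where 70.1% of all features in that fit rose and 2.08% fell. Its median log2 fold change was 1.19, beside 0.59 for the 37 snoRNAs, of which 33 rose and 1 fell. Without rapamycin the outside part rose in 33 of 37 and fell in 0, where 43.2% of all features in that fit rose and 2.72% fell, with a median of 1.02 beside 0.59 for the snoRNAs. Rapamycin in tagged cells raised the outside part in 2 of 37 and lowered it in 0, where 11.7% of all features in that fit rose and 0.134% fell. This split was chosen after the data were seen.

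The number of outside reads per 1000 snoRNA reads needs no scaling between libraries. Over the 4 tagged and 4 parental libraries, this number did not overlap and was higher in tagged cells for 21 of the 37 NUTs, was lower for 1, and overlapped for 15. The median ratio of the tagged over the parental mean was 1.48, with a range of 0.518 to 3.41. Over the 90 NUTs of all kinds that contain a gene and could be compared, 41.1% were higher without overlap and 2.22% lower. The 52 with a protein-coding gene gave 15 higher, 1 lower and 36 that overlapped, with a median ratio of 1.42.

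NUT1169, 1054 nt, contains snR37, which guides pseudouridine formation in rRNA, and was the most abundant NUT. Its density was 455 and 467 in tagged cells with rapamycin and 435 and 409 in tagged cells without it, against 251 and 240 in parental cells with rapamycin and 235 and 243 in parental cells without it. All tagged libraries lay above all parental ones, and log2 fold changes were 0.91 ± 0.10 (SE) with rapamycin and 0.82 ± 0.10 without (limma adjusted p = 4.68e-07 and 3.88e-06). Nearly all of it was snR37, since 40 and 42 reads lay outside it in tagged cells with rapamycin and 53 and 59 in tagged cells without it, against 16 and 8 in parental cells with rapamycin and 13 and 19 in parental cells without it. The outside part rose by 1.76 ± 0.25 with rapamycin (limma adjusted p = 7.25e-06).

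NUT0270 contains snR46, another guide of rRNA pseudouridine, and had the highest ratio of the 37 NUTs over a snoRNA gene. Outside snR46 it held 334 and 310 reads in tagged cells with rapamycin and 324 and 324 in tagged cells without it, against 81 and 74 in parental cells with rapamycin and 110 and 74 in parental cells without it. Per 1000 snR46 reads these were 5.74, 5.32, 4.55 and 4.86 in tagged cells and 1.53, 1.41, 1.63 and 1.43 in parental cells. The groups stand far apart, with a ratio of 3.41. On the log2 density scale the outside part rose by 2.26 ± 0.15 and snR46 by 0.46 ± 0.11 with rapamycin (limma adjusted p = 1.52e-09 and 0.000868).

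NUT0258 contains snR10, an snoRNA needed for efficient rRNA processing. Outside snR10 it held 240 and 174 reads in tagged cells with rapamycin and 210 and 207 in tagged cells without it, against 61 and 50 in parental cells with rapamycin and 75 and 51 in parental cells without it. Every tagged library was above every parental one, with an outside change of 2.07 ± 0.17 and a change of snR10 of 0.53 ± 0.11 with rapamycin. NUT0490 contains snR30, the snoRNA required for 18S rRNA processing. Outside snR30 it held 72 and 53 reads in tagged cells with rapamycin and 62 and 59 in tagged cells without it, against 25 and 16 in parental cells with rapamycin and 21 and 20 in parental cells without it. Again the strains did not overlap, with 1.77 ± 0.20 for the outside part and 0.34 ± 0.11 for snR30 with rapamycin (limma adjusted p = 6.35e-07 and 0.00868).

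NUT0891, over the methylation guide snR63, was, with NUT0013, 1 of the 2 whose outside part rose with rapamycin within tagged cells. Per 1000 snR63 reads it held 10.6 and 10.4 outside reads in tagged cells with rapamycin and 5.78 and 6.79 in tagged cells without it, against 4.03 and 4.43 in parental cells with rapamycin and 3.30 and 3.77 in parental cells without it. The outside part rose by 0.72 ± 0.14 with rapamycin in tagged cells (limma adjusted p = 0.0132), while the whole NUT changed by -0.01 ± 0.12. NUT1446 over snR31, whose window is shown above, held 0.780 and 0.632 outside reads per 1000 snR31 reads in tagged cells with rapamycin and 0.476 and 0.617 in tagged cells without it, against 0.536 and 0.274 in parental cells with rapamycin and 0.257 and 0.298 in parental cells without it. There the strains overlapped, through a parental library with rapamycin at 0.536.

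**Figure D2:**
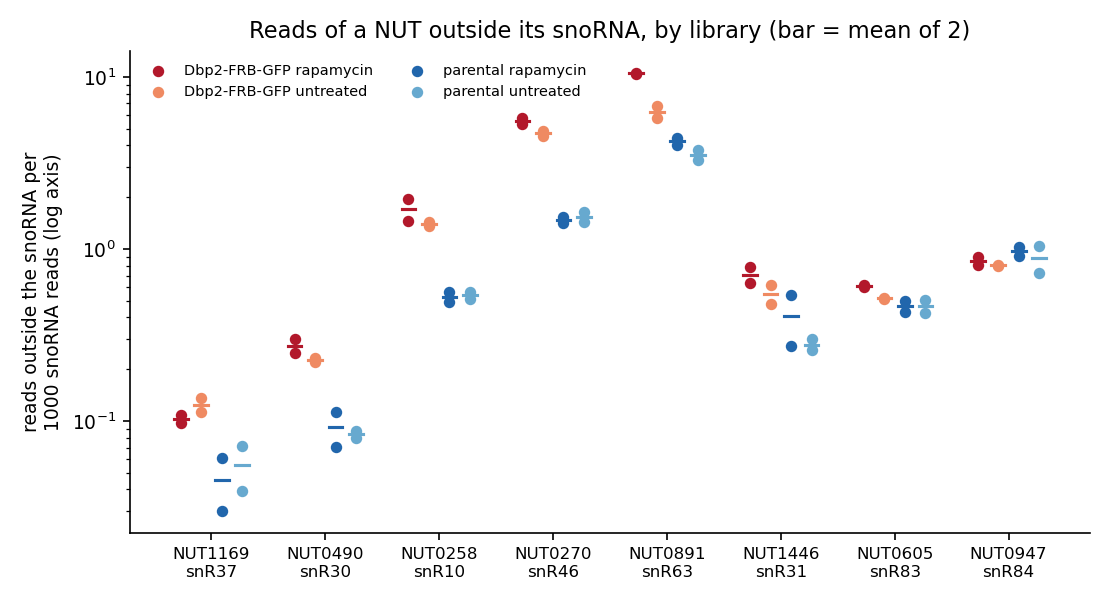
Reads of 8 NUTs outside the snoRNA they contain, per 1000 reads of that snoRNA (log axis), for each library as a point, with a bar at the mean of the 2 libraries of a group. In NUT0258 and NUT0270 the Dbp2-FRB-GFP points lie far above the parental ones, while in NUT0947 over snR84 they overlap.

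A few snoRNA-containing NUTs went another way. NUT0947 over snR84 was among the steadiest NUTs, with a density of 12.0 and 12.3 in tagged cells with rapamycin and 12.5 and 11.7 in parental cells with rapamycin, and its outside part changed by -0.11 ± 0.24 (limma adjusted p = 0.662). NUT0459 over snR69 was the 1 NUT in which outside reads per snoRNA read were lower in tagged cells without overlap, with a ratio of 0.518. There the snoRNA rose by 0.94 ± 0.13 with rapamycin while the outside part changed by 0.03 ± 0.15. NUT0737 over snR8 fell as a whole, with a density of 3.81 and 3.78 in tagged cells with rapamycin against 7.21 and 6.48 in parental cells with rapamycin, a log2 change of -0.85 ± 0.13 (limma adjusted p = 1.09e-05). Its snoRNA fell by 1.01 ± 0.12 and its outside part rose by 0.65 ± 0.16 (limma adjusted p = 0.00187).

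**Figure D3:**
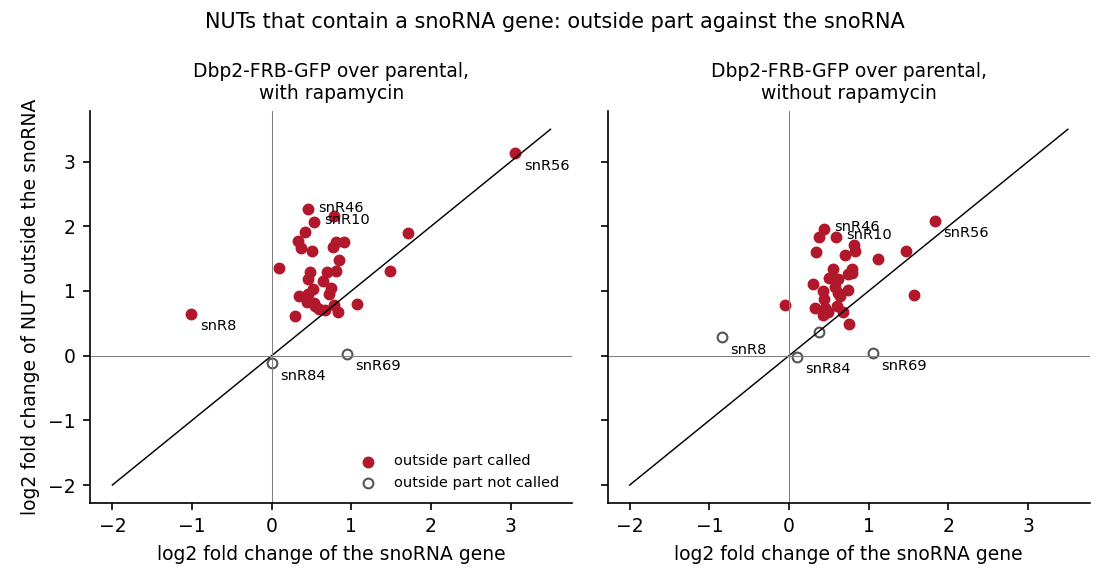
Log2 fold change (Dbp2-FRB-GFP over parental) of the part of each of 37 NUTs outside its snoRNA, plotted against that of the snoRNA, with rapamycin on the left and without it on the right, called outside parts filled and the line of equal change drawn. Most points lie above the line, with medians of 1.19 and 1.02 for the outside part and 0.59 for the snoRNA in both panels.

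The other most abundant NUTs also contain snoRNA genes, apart from NUT1342, whose place over a small RNA could not be read without coordinates. NUT1162 (3258 nt) contains snR190 and had 176 and 178 in tagged cells with rapamycin against 111 and 103 in parental cells with rapamycin, as densities. NUT0255 over snR82 and NUT0605 over snR83 rose by 0.70 ± 0.11 and 0.55 ± 0.12 with rapamycin. NUT1342 had a density of 125 and 128 in tagged cells with rapamycin against 64.6 and 61.7 in parental cells with rapamycin, a rise of 1.01 ± 0.11 (limma adjusted p = 2.82e-07). The search found no listed feature that shares its reads. NUT1342 is listed before SSU72 on chromosome XIV, where the RefSeq annotation of R64 has SNR19, the U1 snRNA of the spliceosome (chrXIV:230105-230672, minus strand). NUT1320 over snR86 was not called in either strain comparison (0.09 ± 0.11 with rapamycin), though its outside part rose by 1.36 ± 0.24. Scaled to snoRNAs, the NUTs over snR30, snR10, snR86, snR63, snR83 and snR46 had negative log2 fold changes with rapamycin.

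Outside the abundant set, the largest rise among the named NUTs belonged to NUT0227, which lies over HSP12, the gene of a small membrane stress protein. Its density was 6.21 and 4.90 in tagged cells with rapamycin and 4.77 and 3.14 in tagged cells without it, against 0.575 and 0.137 in parental cells with rapamycin and 0.595 and 0.129 in parental cells without it. All tagged values exceeded all parental ones, and both parental pairs were themselves far apart. The log2 fold change was 4.25 ± 0.48 with rapamycin and 3.76 ± 0.48 without (limma adjusted p = 3.89e-07 and 4.28e-06). NUT0227 is 541 nt long and HSP12 537 nt, and between 99.9% and 100% of its reads in each library were those of HSP12.

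NUT0013 contains snR56, a guide of 18S rRNA methylation, and was the most raised NUT over a snoRNA. Its density was 2.28 and 2.21 in tagged cells with rapamycin and 0.874 and 0.927 in tagged cells without it, against 0.270 and 0.249 in parental cells with rapamycin and 0.227 and 0.246 in parental cells without it. The tagged groups were separate from each other and from the parental libraries, which lay together. It rose by 3.08 ± 0.14 with rapamycin and by 1.90 ± 0.14 without it (limma adjusted p = 7.83e-13 and 2.75e-09). snR56 itself rose by 3.06 ± 0.13 and the outside part by 3.14 ± 0.15 with rapamycin. The outside reads per 1000 snR56 reads were 371 and 396 in tagged cells with rapamycin and 373 and 422 in tagged cells without it, against 336 and 332 in parental cells with rapamycin and 329 and 281 in parental cells without it. Tagged cells were higher without overlap here too, with a ratio of 1.22.

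For the other named NUTs with the largest rises, the search found no sharing of reads with a gene. That search misses a NUT that holds only a small share of a gene's reads. NUT0380, listed between ATG36 and GON7, had a density of 0.229 and 0.208 in tagged cells with rapamycin against 0.0345 and 0.0425 in parental cells with rapamycin, a rise of 2.31 ± 0.17. NUT0625, listed next to RPD3, the gene of a histone deacetylase, lies within XUT0745 and rose by 2.12 ± 0.20 with rapamycin and 1.95 ± 0.20 without. NUT1492 next to SVL3 rose by 2.19 ± 0.19 and 1.67 ± 0.19, NUT1471 next to CUP9 by 1.87 ± 0.17 and 1.43 ± 0.17, and NUT0520 next to RPS31 by 2.11 ± 0.20 and 1.04 ± 0.20. NUT0032 rose by 1.94 ± 0.25 with rapamycin on 9 and 8 reads in tagged cells and 2 and 2 in parental cells. It thus rests on very few reads, and at a mean of 5 reads it was left out of the search for shared reads. Without rapamycin the named list added NUT0614 (2.33 ± 0.21), NUT1287 (1.69 ± 0.19), NUT1295 (1.61 ± 0.19) and NUT0589 (1.60 ± 0.16), all of which also rose with rapamycin.

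Of the named NUTs, the one that fell most was NUT1033, of 275 nt, listed beside MF(ALPHA)2, a gene of the mating pheromone alpha-factor. Its density was 0.0934 and 0.0552 in tagged cells with rapamycin and 0.0987 and 0.116 in tagged cells without it, against 0.452 and 0.386 in parental cells with rapamycin and 0.398 and 0.404 in parental cells without it. The strains were well separated in both states, and the log2 fold change was -2.42 ± 0.19 with rapamycin and -1.84 ± 0.19 without (limma adjusted p = 2.68e-09 and 2.27e-07). NUT1303, between UTP15 and CTF13, had 0.0318 and 0.0322 in tagged cells with rapamycin against 0.0909 and 0.0749 in parental cells with rapamycin, a fold change of -1.19 ± 0.19. It had 0.0229 and 0.0167 in tagged cells without rapamycin against 0.0413 and 0.0422 in parental cells without it (-0.87 ± 0.19). NUT0478, NUT0401 and NUT1472 fell in both comparisons, by 0.75 to 0.85 on the log2 scale with rapamycin and by 0.95 to 1.20 without it. NUT0140, NUT1193 and NUT0413, named for their falls without rapamycin, had -0.89 ± 0.17, -0.80 ± 0.18 and -0.79 ± 0.19 there, and NUT0140 has exactly the reads of XUT0209. NUT0507 and NUT0579, with -0.85 ± 0.21 and -0.84 ± 0.17 with rapamycin, complete the named falls, and the call of NUT0507 was lost without parental rapamycin replicate 1 (-0.58, adjusted p = 0.051).

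**Figure D4:**
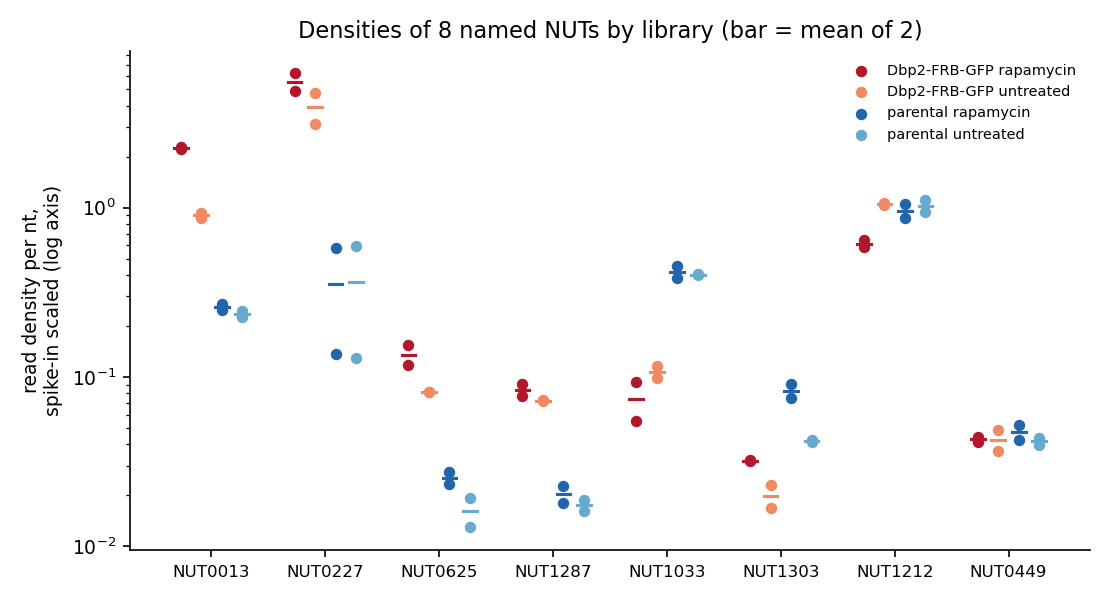
Densities of 8 named NUTs (log axis, reads per nucleotide scaled by spike-ins) in each of the 8 libraries, as points, with a bar at the mean of the 2 libraries of a group. NUT0013 and NUT0227 are highest in Dbp2-FRB-GFP cells, NUT1033 and NUT1303 are highest in parental cells, NUT1212 is lowest in Dbp2-FRB-GFP cells with rapamycin, and NUT0449 overlaps in all groups.

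In tagged cells the number of NUTs called for rapamycin depended strongly on the fit and the libraries. The comparison of Dbp2-FRB-GFP cells with and without rapamycin called 64 NUTs (5.27%) higher and 2 lower, where 13.2% of all tested features rose and 0.144% fell, and the NUT median was 0.27 beside 0.32 for all. At least 2-fold, 4 NUTs rose, where 0.412% of all tested features did, and 1 fell, where 0.0412% did. Scaled to protein-coding features, 2 rose and 1 fell with a median of -0.03, where 0.0514% of all tested features rose and 0.134% fell. A voom fit on the recovered reads called 209 NUTs higher, where 30.8% of all tested features rose. A minimum of 50 mean reads gave 188 NUTs, where 40.6% of all features that passed it rose. The count rested on single libraries. It was lower without either untreated tagged library or Dbp2-FRB-GFP rapamycin replicate 1. Without Dbp2-FRB-GFP rapamycin replicate 2 or either parental untreated library it was higher. The share of all tested features in those fits is not given here, so this does not set NUTs apart from other features.

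Among the called NUTs in the upper part by density whose groups did not overlap, NUT0864 rose most. Not all of the 4 NUTs with at least 2-fold rises are in this set. NUT0864 contains HSP30, a stress-induced regulator of the plasma membrane proton pump. Its density was 0.997 and 2.48 in tagged cells with rapamycin, against 0.511 and 0.354 in tagged cells without it, and in parental cells it was 0.868 and 0.784 with rapamycin and 0.541 and 0.662 without it. The tagged pair with rapamycin was itself widely spread and lay above the untreated pair, with a log2 fold change of 1.87 ± 0.26 (limma adjusted p = 0.000584). The part outside HSP30 changed by 0.35 ± 0.22 (adjusted p = 0.203) while HSP30 rose by 1.90 ± 0.26. NUT0013 followed with 1.31 ± 0.14 (adjusted p = 2.83e-05), and then NUT0117 with 1.08 ± 0.17, listed on chromosome IV beside NUT0901, and NUT1082 with 0.95 ± 0.14, listed beside PFK1. NUT0724 over BAG7, NUT1018 over TOS3 and NUT1459 over ATG41 rose by 0.74 to 0.81, and each lost its call without Dbp2-FRB-GFP untreated replicate 2 (adjusted p of 0.066, 0.14 and 0.075). With the contained gene subtracted, NUT1018 and NUT1459 were not called (adjusted p = 0.19 and 0.15). NUT0032 rose by 0.86 ± 0.25 and lost its call without the same library (adjusted p = 0.31) and without Dbp2-FRB-GFP rapamycin replicate 1 (0.12).

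In tagged cells 2 NUTs were called lower with rapamycin. The 1 that fell at least 2-fold lay in the lowest density group and is not named. The other was NUT1212, 256 nt, listed beside YKL153W, which fell by 0.78 ± 0.15 (limma adjusted p = 0.00729). Its density was 0.643 and 0.583 in tagged cells with rapamycin, against 1.07 and 1.04 in tagged cells without it, and 0.869 and 1.05 in parental cells with rapamycin against 0.946 and 1.11 in parental cells without it. The tagged pair with rapamycin lay below the other 6 libraries.

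In parental cells rapamycin gave no NUT call. By limma 0 NUTs rose and 0 fell, where 0.0206% of all tested features rose and 0.0103% fell, and 42 NUTs had an unadjusted p under 0.05. A voom fit on the recovered reads called 1 higher and 0 lower. The NUT median was 0.09 beside 0.10 for all tested features.

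The rapamycin effect differed between the strains by test for NUT0013 alone, where 0.0309% of all tested features had a higher effect in tagged cells and 0.0103% a lower one. Its interaction was 1.18 ± 0.20 on the log2 scale (limma adjusted p = 0.0237), from an effect of 1.31 ± 0.14 in tagged cells and 0.13 ± 0.14 in parental cells. The part outside snR56 gave 1.05 ± 0.21 (adjusted p = 0.106) and snR56 itself 1.23 ± 0.18 (adjusted p = 0.00974). The call was lost without a filter on low values (adjusted p = 0.097), without a trend of the prior (0.076), under the protein-coding scaling (0.27) and the quantile one (0.26).

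On the spike-in scale some NUTs hardly moved in any comparison. All tested features had strain medians of 0.59 with rapamycin and 0.36 without it, so these NUTs lay below the general shift. Besides NUT0947, the steadiest of the more abundant NUTs were NUT0968 over MIG3, NUT1007 beside HAP2, NUT0449 beside OCT1 and NUT0382 beside RPL17B. NUT0449 had a density of 0.0444 and 0.0413 in tagged cells with rapamycin and 0.0484 and 0.0367 in tagged cells without it, against 0.0426 and 0.0518 in parental cells with rapamycin and 0.0398 and 0.0438 in parental cells without it. All groups overlapped.

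The genes of the termination and decay pathway were read from the same fit. Of 40 genes, 26 rose and 2 fell in tagged against parental cells with rapamycin, and 13 rose and 2 fell without it. Of the tested protein-coding features 66% rose and 2.42% fell with rapamycin, and 33.1% rose and 3.27% fell without it, so the shares of the 40 genes that rose were close to those of protein-coding features in general. NRD1 had a density of 1.40 and 1.17 in tagged cells with rapamycin and 1.08 and 1.07 in tagged cells without it, against 0.570 and 0.586 in parental cells with rapamycin and 0.479 and 0.550 in parental cells without it. The strains did not overlap, and NRD1 rose by 1.13 ± 0.14 with rapamycin and 1.06 ± 0.14 without (limma adjusted p = 1.67e-06 and 8.97e-06). Its partners had 0.26 ± 0.15 (NAB3, adjusted p = 0.113) and 0.02 ± 0.15 (SEN1, adjusted p = 0.921) with rapamycin, and scaled to protein-coding features these were -0.24 and -0.48.

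All 13 genes of the nuclear exosome rose with rapamycin and 7 rose without it, with median changes of 0.72 and 0.41, beside 0.50 and 0.26 for all tested protein-coding features. Among them were RRP46 of the core ring (1.05 ± 0.15 and 0.69 ± 0.15), the cofactors LRP1 (0.98 ± 0.15 and 0.65 ± 0.15) and MPP6 (1.03 ± 0.17 and 0.58 ± 0.17), and the cap subunits CSL4 (0.94 ± 0.16 and 0.64 ± 0.16) and RRP40 (0.71 ± 0.15 and 0.48 ± 0.15). The calls of MPP6 and RRP40 without rapamycin were lost without parental untreated replicate 1 (adjusted p = 0.059 and 0.11), that of MPP6 also without Dbp2-FRB-GFP untreated replicate 2 (0.068) and that of RRP40 without Dbp2-FRB-GFP untreated replicate 1 (0.093). Scaled to snoRNAs, CSL4, MPP6 and RRP40 had -0.0086, -0.059 and -0.17 without rapamycin. RRP6, the nuclear 3′ to 5′ exonuclease, had 0.44 ± 0.15 (adjusted p = 0.0124) and 0.19 ± 0.15 (adjusted p = 0.299), and -0.06 with rapamycin after scaling to protein-coding features. Its call with rapamycin was lost without parental rapamycin replicate 1 (adjusted p = 0.18) and without Dbp2-FRB-GFP rapamycin replicate 1 (0.095). Read against the same 66% and 33.1% of protein-coding features, 2 of 5 TRAMP genes rose with rapamycin and 0 without it. Of the 8 genes of polymerase tail and APT factors 6 rose with rapamycin, such as SSU72 (0.95 ± 0.16), a phosphatase of the polymerase tail, and 1 rose without it. Among the 5′ to 3′ exonuclease group, RAI1 (1.00 ± 0.15) and RTT103 (0.91 ± 0.15), both tied to the nuclear exonuclease Rat1, rose with rapamycin, as did CBC2 of the cap-binding complex (0.85 ± 0.15).

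Of 6 genes known for Nrd1-dependent attenuation, 2 rose and 2 fell in both strain comparisons. Of all tested protein-coding features 66% rose and 2.42% fell with rapamycin, and 33.1% rose and 3.27% fell without it. NRD1 and HRP1 rose, HRP1 by 0.68 with rapamycin and 0.47 without. IMD2, of guanine nucleotide synthesis, fell by 0.35 and 0.38 (limma adjusted p = 0.0379 and 0.0389), and URA8, of CTP synthesis, fell by 0.49 and 0.44 (limma adjusted p = 0.00637 and 0.0209). NUT0356 contains IMD2. Its reads outside IMD2 per 1000 IMD2 reads averaged 122 in tagged and 35.5 in parental libraries, without overlap. This ratio of 3.44 was the highest of the 90 NUTs compared. NUT0422 lies within URA8 and holds at least 99.8% of its reads. Rapamycin in tagged cells raised 5 genes of the 40 (SYC1, RTT103, PCF11, SWD2 and SSU72, by 0.48 to 0.58), where 16.4% of protein-coding features rose, and each of them lost its call when either untreated tagged library or Dbp2-FRB-GFP rapamycin replicate 1 was left out. In parental cells 0 of the 40 were called.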

How the data were processed

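Total RNA was sequenced in 8 libraries, 2 per group. The tools named are Trim Galore, HISAT2 2.2.0, featureCounts 2.0.0 and DESeq2, with R64 as the build, per the submitters' processing notes. A strand setting of the counting is among the items not given in the sources used here. Per the file headers, the authors deposited normalised densities, a signal per feature and library, and group means that were not used. The file held 0 library columns of no sample.

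Each density is a whole number of reads divided by the length and by a library factor, within 0.0001 reads, for 100% of positive values, partly by construction because the length (up to 40000 nt) was chosen for it. The shortest such length was taken, so the length and the reads of a feature could both be too low by a common factor. These reads describe depth (2164555 to 3327601 NUT reads per library). Replicates of a group differed by a median of 0.13 to 0.17 on the log2 scale per tested NUT. Strand was taken from the NUT numbering, where a second series starts at number 817. A NUT was said to share reads with a feature listed within 15 rows on the same strand where the smaller held at least 80% of the reads of the larger in each library (50% for snoRNAs), among NUTs of at least 20 mean reads. The inferred strands matched in 108 of 110 candidate pairs with genes, and 2 pairs were dropped.

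limma 3.58.1 (R 4.3.3) was run on log2(density + 0.00721), with the 5th percentile of all positive densities as pseudocount, so fold changes of low NUTs are understated. Spike-ins and features under the 10th percentile of mean density (0.0127) were left out, which left 9719. All 8 libraries shared 1 spread (4 residual and 17.2 prior degrees of freedom) with a trend, two-sided, with Benjamini-Hochberg adjustment at 0.05. The lone remaining library of a group, when the other is left out, was taken to vary as much as libraries of the other groups. Python 3.11.15 with numpy 2.4.6, pandas 2.3.3 and matplotlib 3.10.9 served the rest. The limma steps were run on simulated reads for the strain comparison with rapamycin, and the other steps were not.

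By rule the text names the 10 NUTs of highest mean density, up to 8 highest and 8 lowest called NUTs per comparison without overlap and in the upper part of the tested NUTs by density (split at the median of 0.0362), the 5 steadiest, up to 5 that carry another feature's values, called pathway genes and DBP2. NUT0459, NUT1446, NUT0356 and NUT0422 lie outside the rule and were chosen after their values were seen, as were IMD2, URA8 and HRP1. The NUTs, the pathway lists and the tests were chosen with earlier results of these data known. The rule on shared reads, the subtraction of a contained gene, voom on recovered reads and the minimum of 50 mean reads were added after the data were seen.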

Additional observations from a re-analysis of the deposited data

Results flagged for a closer look

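The rapamycin effect on NUT0013, which contains snR56, differed between the strains in a test of the difference itself, with an interaction of 1.18 on the log2 scale (limma adjusted p = 0.0237). Rapamycin gave 1.31 in Dbp2-FRB-GFP cells and 0.13 in parental cells. The density was 2.28 and 2.21 in tagged cells with rapamycin against 0.874 and 0.927 in tagged cells without it, and 0.270 and 0.249 in parental cells with rapamycin against 0.227 and 0.246 in parental cells without it. The interaction kept its call when any 1 library was left out, at 1.13 to 1.24. It lost its call with no filter (adjusted p = 0.097), with no trend (0.076), under protein-coding (0.27) and quantile (0.26) scaling and with the contained gene subtracted (0.106).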

How the results depend on the processing

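Counts of NUTs called are given as higher and lower. For Dbp2-FRB-GFP against parental cells with rapamycin (926 and 20), a filter at the 25th percentile gave 533 higher and a minimum of 50 mean reads 497, both with fewer NUTs tested, and a 2-fold minimum gave 326 and 2. Scaling to protein-coding features gave 423 and 69, to snoRNAs 201 and 61, and quantile normalization 174 and 179. Without rapamycin (701 and 22) the filter gave 428 higher, the 50-read minimum 409, the 2-fold minimum 156 and 3, protein-coding scaling 53 lower, snoRNA scaling 88 and 78, and quantiles 153 and 126. NUTs without overlap (900 and 24) were 618 and 83 under protein-coding scaling, where 34.4% and 19.8% of all tested features did not overlap. They were 260 and 116 under snoRNA scaling, where 11% and 14.7% did not, and 245 and 250 under quantiles. Under quantiles these were 20.2% and 20.6% of NUTs, where 21.8% and 27.1% of all tested features did not overlap. For rapamycin in Dbp2-FRB-GFP cells (64 and 2), no filter gave 13 higher, no trend 17, voom 209, the 50-read minimum 188, the 2-fold minimum 4 and 1, protein-coding scaling 2 and 1, snoRNA scaling 12, quantiles 1 and 1, and the spread of the 4 libraries compared 4 lower. For rapamycin in parental cells (0 and 0) the count of higher NUTs was 2 with the 25th-percentile filter, the 4-library spread or the replicate block, 1 with snoRNA scaling or voom and 3 with the 50-read minimum. The interaction (1 and 0) gave 0 higher with no filter, protein-coding scaling, quantiles, no trend or the contained gene subtracted, 6 with the 25th-percentile filter, 4 with snoRNA scaling or the 50-read minimum and 2 with voom. Scaled to snoRNAs, rapamycin in Dbp2-FRB-GFP cells raised 173 of all tested features, and the interaction was called higher for 39. The counts given here without a value for all tested features do not set NUTs apart from other features. Apart from the filters and the 2-fold minimum, the cause was not tested.

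Leaving out 1 library gave, with rapamycin, 749 to 932 NUTs higher and 14 to 23 lower in tagged cells, and without rapamycin 434 to 730 and 13 to 26. It gave 5 to 163 and 2 to 4 for rapamycin in tagged cells, 0 to 2 and 0 to 2 in parental cells, and 1 to 6 and 0 to 1 for the interaction.

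The labels give replicate numbers 1 and 2 in each group with no sign that a number marks a shared culture or day. Deviations of same-numbered libraries correlated at -0.13 to 0.15, which cannot show whether same-numbered samples shared a culture or day. With the replicate block, 916 NUTs rose and 18 fell with rapamycin, 688 and 23 without it, 50 and 3 with rapamycin in tagged cells, 2 and 0 in parental cells, and 6 and 1 for the interaction.

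Log2 fold changes that turned, at the named setting, were as follows. With rapamycin (Dbp2-FRB-GFP over parental), scaling to protein-coding features gave NUT0490 -0.17, NUT1320 -0.42, NUT0891 -0.13, NUT0270 -0.046, NAB3 -0.24, SEN1 -0.48 and RRP6 -0.061. In that comparison scaling to snoRNAs gave NUT0490 -0.34, NUT0258 -0.14, NUT1320 -0.58, NUT0891 -0.29, NUT0605 -0.12, NUT0270 -0.21, SEN1 -0.65, RRP6 -0.23 and DBP2 -0.14. There quantile normalization gave NUT0490 -0.029, NUT1320 -0.35, NUT0891 -0.038, NAB3 -0.25, SEN1 -0.49 and RRP6 -0.060. Still with rapamycin, the contained gene subtracted gave NUT0737 0.65. Without rapamycin (Dbp2-FRB-GFP over parental), scaling to protein-coding features gave SEN1 -0.23. Scaling to snoRNAs without rapamycin gave NUT0490 -0.31, NUT0258 -0.064, NUT0891 -0.35, NUT0270 -0.21, CSL4 -0.0086, RAI1 -0.062, MPP6 -0.059, CBC2 -0.15, RRP40 -0.17 and SEN1 -0.61. Quantile normalization without rapamycin gave NUT0490 -0.029 and SEN1 -0.26. The contained gene subtracted, without rapamycin, gave NUT1320 0.78. For rapamycin in Dbp2-FRB-GFP cells, the contained gene subtracted gave NUT0891 0.72.

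Among single NUTs and genes, 2511 recomputed values kept direction and side, 143 lost their call, 8 gained one and 38 turned. With a median of 50 reads per tested NUT, counting error limits the low NUTs most.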
